A study of Mus musculus with 6 samples.

Results

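The centrosome, augmin and gamma-tubulin genes comprise 51 genes of the 14495 in a table of messenger RNA counts from the mouse ventricle. They were chosen by name: every symbol that begins with Cep and a digit (other than Cep55), with Haus and a digit or with Tubg, the polo-like kinases Plk1 to Plk4, and Pcnt, Pcm1, Ninl, Aspm, Cdk5rap2, Sass6, Stil, Odf2, Nedd1, Aurka and Tpx2. All 51 were detected, and all 51 passed the filter on low counts. The groups were postnatal day 14 (P14) and postnatal day 1 (P1), with 3 libraries each, all from untreated male C57BL/6 mice. Each library pooled the ventricles of 3 hearts, so 9 hearts stood behind each age, and a value is the mean of a pool rather than of an animal. The labels name the left ventricle in one field and whole ventricles with the septum in another.

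The centrosome is a pair of centrioles embedded in a pericentriolar matrix, on which gamma-tubulin ring complexes start new microtubules. Before division each centriole is copied once, in a step begun by the kinase Plk4 with Stil and Sass6, and at mitosis Plk1 and Aurka enlarge the matrix while the augmin complex branches microtubules inside the spindle. The mother centriole also carries appendages that dock it as the base of a cilium. In rodent cardiomyocytes, which stop dividing soon after birth, matrix and satellite proteins such as pericentrin and Pcm1 are known to move from the centrosome to the nuclear envelope, and Pcm1 protein is used to mark cardiomyocyte nuclei.

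Library totals ran from 9104230 to 15725993 counts at P14 and from 5916557 to 17353933 at P1. The 51 genes together held 4811 to 8247 counts per library at P14 and 5205 to 19319 at P1. Single counts of a member ran from 3 to 1616, and 10 members had fewer than 10 counts in at least 1 library. Levels are given as CPM, counts scaled to the size of each library after TMM normalisation (trimmed mean of M-values). A gene "rose" or "fell" at P14 only where the quasi-likelihood test of edgeR, adjusted over all 14301 genes tested, gave a value under 0.05. P1 replicate 2 stood apart from the other P1 libraries in GC content. The deviation of its genes from the P1 mean had a rank correlation with transcript GC content of −0.684, against 0.554 and 0.416 in P1 replicates 1 and 3. All 3 deviations share 1 mean, so their signs are not independent. Over all counts P1 replicates 1 and 3 differed most (chi-square per degree of freedom 182). Pairs with replicate 2 gave 95.7 (with replicate 1) and 94.7 (with replicate 3). The heart label was met by the cardiomyocyte markers, of which 8 of 8 were detected with a summed level of 69500 to 80500 CPM at P14 and 40100 to 43300 CPM at P1, and 5 of the 8 rose.

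Of the 51 genes, 21 fell at P14 (41.2%), 3 rose (5.88%) and 27 did not pass the test. Over all genes tested, 22.0% fell and 21.8% rose. The median log2 fold change was −0.51 for the 51 genes and −0.01 for all genes. In 24 of the 51 every P14 library lay below every P1 library (47.1%, against 27.5% of all genes), and in 5 every P14 library lay above (27.3% of all genes). Without the mitotic genes Plk1, Aurka, Tpx2 and Aspm, 17 of 47 fell (36.2%). Without P1 replicate 2 the counts over the 51 genes were 22 falls and 4 rises, while 3309 of all 14229 genes tested fell and 3401 rose. With libraries scaled by their totals alone, 35 fell and 0 rose, while 5592 of all 14301 genes tested fell and 1620 rose. That scaling moved the median of all genes to −0.47, with rises making up 22.5% of all called genes against 49.7% with TMM. Relative to the median of all genes, the members' median was −0.5 with TMM and −0.52 with totals alone. Fewer dividing cells and less RNA per cell cannot be told apart in these bulk samples.

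**Figure D1:**
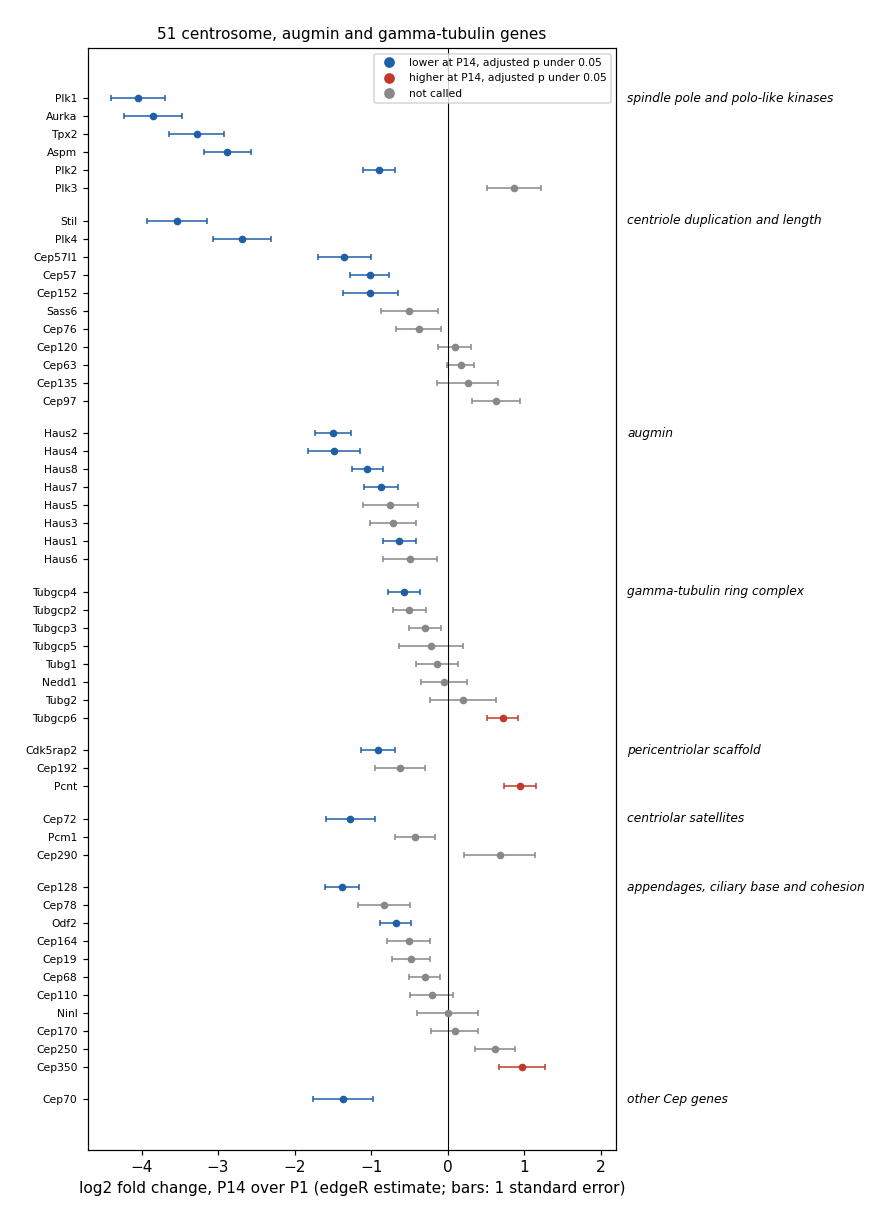
Log2 fold change of P14 over P1 (x axis) for each of the 51 genes, in their role groups from top to bottom; points are edgeR estimates, bars 1 standard error, blue genes fell, red genes rose and grey genes were not called. The spindle pole genes Plk1, Aurka, Tpx2 and Aspm and the duplication genes Stil and Plk4 stand far to the left, between −4.05 and −2.69, and the 8 augmin subunits all lie below 0.

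Among the 6 spindle pole genes and polo-like kinases 5 fell (83.3%, against 22.0% of all genes), and 4 of these fell more than 7-fold. Plk1, the kinase that drives mitotic entry and matrix growth (ENSMUSG00000030867; GRCm38 chromosome 7, 122159439 to 122169873), had 1.2, 0.797 and 0.773 CPM in the P14 libraries, against 17.0, 11 and 20.7 CPM in the P1 libraries. These rest on 6 to 17 counts per library at P14 and 123 to 367 at P1. Of the 36-base windows of the longest Plk1 transcript 83.5% were unique among annotated transcripts. The rest were shared with Plk-ps1 and Gm44985, and exons of Plk1 overlap Gm44985 on the opposite strand. The log2 fold change of Plk1 was −4.05 ± 0.35 (SE, n = 3 libraries per age; edgeR adjusted p = 9.54e-07), the largest fall of the 51. Aurka, which encodes the Aurora A kinase of the spindle poles, had 3.66, 0.929 and 3.09 CPM at P14, against 38.0, 27.6 and 50.5 CPM at P1. Its activator on the spindle, Tpx2, had 6.33, 1.59 and 4.38 CPM at P14, against 37.8, 38.0 and 48.7 CPM at P1. Aspm, a protein of the microtubule minus ends at the pole, had 1.83, 1.06 and 2.19 CPM at P14, against 10.5, 13.4 and 14.5 CPM at P1. For all 4 genes no P14 library came near the lowest P1 library, and P14 replicate 2 was the lowest P14 library for Aurka, Tpx2 and Aspm, with 7 to 12 counts. The log2 fold changes were −3.85 ± 0.38 for Aurka, −3.28 ± 0.36 for Tpx2 and −2.88 ± 0.31 for Aspm (SE), and none of these calls ended in any setting tried.

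Among the other polo-like kinases Plk2 and Plk4 also fell, and Plk3 did not pass; Plk4 is described with centriole duplication. Plk2, a kinase induced by stress and by neuronal activity that also acts in centriole duplication, had 11.1 CPM per kilobase of its longest annotated transcript at P14 and 20.7 at P1, where it was the most abundant of the 51 per length. It had 34.0, 27.4 and 32.2 CPM at P14, against 61.3, 67.0 and 45.3 CPM at P1, so that it fell 1.86-fold (edgeR adjusted p = 0.00314). Plk3, a stress-responsive member of the family, had 3.8, 3.05 and 5.15 CPM at P14, against 2.91, 1.63 and 1.85 CPM at P1. All P14 values of Plk3 lay above those at P1, but it did not pass (log2 fold change 0.87 ± 0.35, SE; edgeR adjusted p = 0.0574); with the replicate number as a block the adjusted p was 0.0445, and without P1 replicate 1 it was 0.0259. After a correction for GC content and length the log2 fold change of Plk3 was 0.38 (adjusted p = 0.321), and 0.34 with the block added (0.392). The log2 ratio of Plk1 to Plk2 within a library, with 0.5 added to each CPM, was −4.35, −4.42 and −4.68 at P14, against −1.82, −2.56 and −1.11 at P1. The ages did not overlap, and the mean difference was −2.65. The exact two-sided permutation p, with libraries taken as unpaired, was 0.1, the smallest that 3 libraries against 3 allow. The size of the difference depends on the added value, because Plk1 was near 1 CPM at P14: with 2 added to each CPM it was −1.77.

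**Figure D2:**
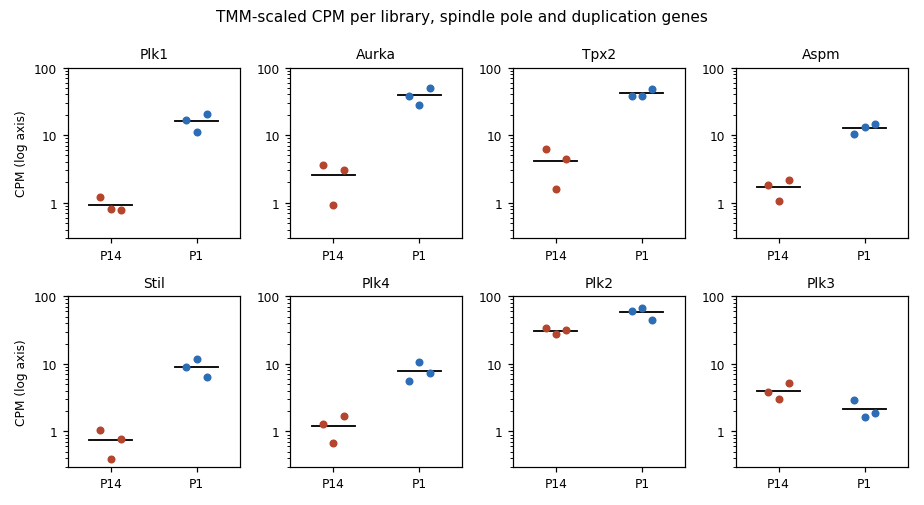
TMM-scaled CPM (log axis, the same range in each panel) of 8 genes in the 3 P14 libraries (red, left) and the 3 P1 libraries (blue, right); lines are means. Plk1, Aurka, Tpx2, Aspm, Stil and Plk4 are separated by wide gaps, Plk2 by a narrow one, and Plk3 runs the other way.

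Promoters of some of these genes are shown because members that moved together can be compared there by eye. The printed windows were chosen and do not represent all members that fell. The windows run from 250 bases before to 50 after the RefSeq start in GRCm38.p6, and 41 of the 51 genes matched one. Capitals mark TTTGAA (the letters of the cell cycle homology region, or CHR), CCAAT (bound by NF-Y) and TTCCCGC (the core of many E2F sites), each searched on both strands. Plk1, Aurka and Aspm are large falls, and Plk2 is a small one in the same kinase family as Plk1.
Plk1 promoter, chr7:122159185-122159484 (plus strand): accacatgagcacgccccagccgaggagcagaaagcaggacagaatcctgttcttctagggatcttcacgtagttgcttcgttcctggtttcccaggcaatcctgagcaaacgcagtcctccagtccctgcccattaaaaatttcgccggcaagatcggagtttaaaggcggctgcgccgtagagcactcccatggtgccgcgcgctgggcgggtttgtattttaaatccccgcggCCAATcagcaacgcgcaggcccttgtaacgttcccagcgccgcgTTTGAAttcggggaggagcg
Aurka promoter, chr2:172370521-172370820 (minus strand): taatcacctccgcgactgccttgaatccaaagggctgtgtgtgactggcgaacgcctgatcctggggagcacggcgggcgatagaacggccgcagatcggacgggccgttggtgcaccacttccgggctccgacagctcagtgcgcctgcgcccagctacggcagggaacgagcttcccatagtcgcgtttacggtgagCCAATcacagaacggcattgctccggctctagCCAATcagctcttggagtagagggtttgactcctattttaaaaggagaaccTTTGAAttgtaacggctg
Aspm promoter, chr1:139454523-139454822 (plus strand): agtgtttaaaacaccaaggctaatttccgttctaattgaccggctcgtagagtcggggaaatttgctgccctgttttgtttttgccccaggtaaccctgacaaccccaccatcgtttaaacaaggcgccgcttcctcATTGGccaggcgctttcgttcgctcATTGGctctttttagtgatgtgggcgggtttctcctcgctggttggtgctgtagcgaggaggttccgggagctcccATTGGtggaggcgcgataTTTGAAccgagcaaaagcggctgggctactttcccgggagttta
Plk2 promoter, chr13:110394794-110395093 (plus strand): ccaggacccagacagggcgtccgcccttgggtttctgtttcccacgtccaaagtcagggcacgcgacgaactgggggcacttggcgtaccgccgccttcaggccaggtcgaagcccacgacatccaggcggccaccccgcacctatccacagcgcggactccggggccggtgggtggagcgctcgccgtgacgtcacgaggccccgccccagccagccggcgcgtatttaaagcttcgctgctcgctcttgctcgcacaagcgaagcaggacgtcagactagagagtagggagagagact
In Plk1, Aurka and Aspm a TTTGAA lies after the start, with its first base at positions 31, 33 and 7, and a CCAAT lies shortly before the start, at −14 in Plk1, −51 and −19 in Aurka, and −113, −88 and −12 in Aspm. The Plk2 window holds none of the 3 motifs. Stil had CCAAT at −241, −99 and −15 and TTCCCGC at 44, and Plk4 had TTCCCGC at −120; neither held TTTGAA. Over the genes tested here with a window, 11.2% held TTTGAA, 38.5% CCAAT and 8.58% TTCCCGC, and 4.84% held the first 2 together. Of the 41 member windows 22.0% held TTTGAA, 43.9% CCAAT and 31.7% TTCCCGC, and 6 windows held TTTGAA and CCAAT together. Among the 19 windows of members that fell, 7 held TTTGAA, 10 CCAAT and 7 TTCCCGC. Among the 20 of members that were not called the numbers were 2, 7 and 5. In the 2 windows of members that rose they were 0, 1 and 1, with CCAAT at 38 and TTCCCGC at −19 in Pcnt. Cep164, which was not called, held TTTGAA at −128 and CCAAT at −74, −69 and −40. Haus2, Haus8 and Tubgcp4 fell, and their windows held none of the 3 motifs. All of these are matches of letters, not tested sites.

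In the centriole duplication and length group 5 of 11 genes fell, 0 rose and 6 were not called (45.5% fell, against 22.0% of all genes), and the falls were uneven. Stil, which brings the centriole scaffold to Plk4 (ENSMUSG00000028718; chromosome 4, 115000159 to 115043196), had 1.06, 0.398 and 0.773 CPM at P14, against 8.93, 12 and 6.4 CPM at P1. It fell 11.6-fold (edgeR adjusted p = 7.74e-06) on 3 to 15 counts per library at P14 and 38 to 206 at P1. Plk4, the kinase that starts duplication, had 1.27, 0.664 and 1.67 CPM at P14, against 5.64, 10.6 and 7.41 CPM at P1 (log2 fold change −2.69 ± 0.38, SE; edgeR adjusted p = 6.75e-05). Sass6, which forms the centriolar cartwheel with Stil, was low at both ages: it had 1.9, 1.59 and 2.06 CPM at P14, against 2.17, 3.67 and 1.85 CPM at P1, and the ages overlapped (log2 fold change −0.50 ± 0.37, SE; edgeR adjusted p = 0.294). For Sass6 57.9% of 36-base windows of the longest transcript were unique among annotated transcripts, and its exons overlap Trmt13 on the opposite strand, so its count is uncertain. Whether the change of Stil or Plk4 differs from that of Sass6 was not tested.

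Smaller falls in this group were those of Cep57l1, Cep57 and Cep152. Cep57l1, a relative of the matrix protein Cep57, had 2.39, 1.06 and 2.06 CPM at P14, against 5.04, 5.42 and 3.87 CPM at P1. Cep57 fell 2.03-fold. Cep152, the receptor that brings Plk4 to the centriole, had overlapping ages, and its adjusted p of 0.0359 was 0.0544 to 0.159 when P1 replicate 1, P1 replicate 2 or any 1 of the P14 libraries was left out. Its partner Cep63 was the third most abundant member per length at P14, at 10.1 CPM per kilobase against 8.97 at P1. Cep63 had 56.8, 64.4 and 56.1 CPM at P14 and 53.2, 52.9 and 51.7 CPM at P1, a log2 fold change of 0.17 ± 0.18 (SE). Relative to the median of all genes it was 0.18, and 0.17 with totals alone. Exons of Cep63 overlap Anapc13 on the opposite strand. Cep76, which limits reduplication, and Cep120, Cep135 and Cep97, which act in centriole assembly and length control, did not pass, with log2 fold changes of −0.38 to 0.63. Cep97 had an adjusted p of 0.048 with the replicate block and 0.0134 without P1 replicate 2 (edgeR), with log2 fold changes of 0.67 and 0.97. After the GC and length correction it was 0.79 (adjusted p = 0.00978), the only rise of the 11 under that correction.

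Augmin, the complex of 8 Haus subunits that recruits gamma-tubulin to the sides of spindle microtubules, had falls in most subunits. Of 8 subunits 5 fell, 0 rose and 3 were not called, all 8 fold changes were negative, and in 7 of 8 no P14 library reached the lowest P1 library. These are 62.5% that fell and 87.5% with every P14 library below, against 22.0% and 27.5% of all genes. Their median log2 fold change was −0.81, against −0.01 over all genes. Haus2 had 5.77, 5.44 and 6.31 CPM at P14, against 15.0, 18.9 and 15.7 CPM at P1, so that every P14 library held well under the lowest P1 library (log2 fold change −1.50 ± 0.24, SE; edgeR adjusted p = 0.000173). Haus4 had 9.08, 3.58 and 4.38 CPM at P14, against 21.5, 13.0 and 14.8 CPM at P1, with a wider spread at each age. Haus8, the subunit that contacts the microtubule, was the most abundant of the 8 by CPM, with 34.0, 27.0 and 28.5 CPM at P14 and 74.8, 55.2 and 55.9 CPM at P1, and fell 2.08-fold. Haus7 and Haus1 fell 1.83-fold and 1.55-fold. On the opposite strand, exons of Haus1 overlap Atp5a1, those of Haus2 overlap Lrrc57 and those of Haus8 overlap Myo9b. The call of Haus1 ended without P14 replicate 2 (edgeR adjusted p = 0.096), without P14 replicate 3 (0.112) and after the correction for GC content and length (0.071; 0.0235 together with the replicate block).

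The subunits that did not pass had low counts. Haus3 had 3.73, 3.98 and 3.73 CPM at P14, against 6.8, 7.58 and 4.04 CPM at P1, and passed without P1 replicate 3 (edgeR adjusted p = 0.0328). Haus5 had 1.62, 1.46 and 1.42 CPM at P14, against 3.15, 2.39 and 1.85 CPM at P1. It passed as lower after the GC and length correction (log2 fold change −1.12, edgeR adjusted p = 0.0138; 0.0173 with the block added). In Haus5 20.1% of windows were unique, the rest being shared mainly with the overlapping locus Gm21982, so that its reads may be split. Haus6 had overlapping ages (2.6, 3.98 and 6.05 CPM at P14, 4.63, 7.87 and 4.71 CPM at P1). With totals alone all 8 subunits passed as lower, as did 5592 of all 14301 genes tested.

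**Figure D3:**
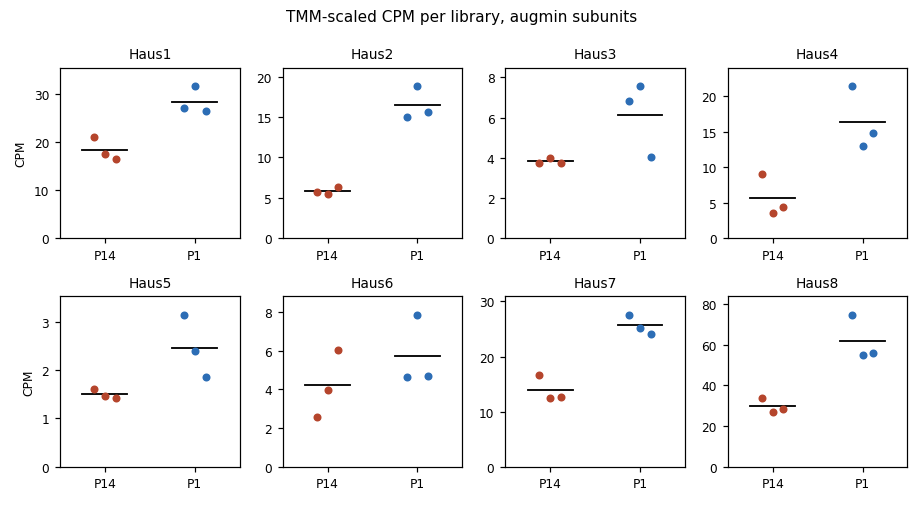
TMM-scaled CPM (linear axis from 0, a separate scale per panel) of the 8 augmin subunits in the 3 P14 libraries (red, left) and the 3 P1 libraries (blue, right); lines are means. The P14 points lie below all P1 points for each subunit other than Haus6.

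Of 8 genes of the gamma-tubulin ring complex 1 fell, 1 rose and 6 were not called, with a median log2 fold change of −0.18. That is 12.5% in each direction, against 22.0% that fell and 21.8% that rose over all genes. After the GC and length correction 2 of the 8 fell and 0 rose, while 3773 of all 14301 genes tested fell and 3598 rose. Tubg1, the main gamma-tubulin (ENSMUSG00000035198; chromosome 11, 101119938 to 101126419), was the most abundant member per length at P14, at 13.4 CPM per kilobase against 14.8 at P1. It had 26.8, 22.7 and 22.9 CPM at P14, against 35.3, 15.9 and 28.6 CPM at P1. P1 replicates 1 and 2 enclosed all 3 P14 values, and the log2 fold change was −0.14 ± 0.27 (SE; edgeR adjusted p = 0.707). After the correction for GC content and length it was −0.53 with an adjusted p of 0.0094 (0.00825 together with the replicate block). Tubg2, the neighbouring copy on the same strand (chromosome 11, 101155907 to 101161787), had 1.9, 1.19 and 1.8 CPM at P14, against 1.43, 0.874 and 2.36 CPM at P1, on 9 to 31 counts per library. In Tubg1 78.6% and in Tubg2 78.9% of 36-base windows were unique, the shared ones being mainly those common to the pair. The log2 ratio of Tubg1 to Tubg2 was 3.51, 3.78 and 3.35 at P14, against 4.21, 3.57 and 3.35 at P1 (difference −0.17, exact two-sided permutation p = 0.6), and the difference turned to 0.08 without P1 replicate 1.

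Nedd1, which attaches the ring complex to the centrosome and to augmin, had 5.98, 9.29 and 9.14 CPM at P14, against 5.78, 11.2 and 8.08 CPM at P1, and its change (log2 −0.05 ± 0.30, SE; edgeR adjusted p = 0.907) turned to 0.25 without P1 replicate 2. Tubgcp6, the largest of the ring subunits, rose: it had 41.2, 40.4 and 36.3 CPM at P14, against 24.3, 20.5 and 26.9 CPM at P1. The ages did not overlap, and the estimated log2 fold change was 0.72 ± 0.20 (SE; edgeR adjusted p = 0.00923). With totals alone it was 0.27 (adjusted p = 0.398), and after the GC and length correction 0.40 (adjusted p = 0.0519; 0.049 together with the replicate block). Exons of Tubgcp6 overlap Selenoo on the opposite strand. Tubgcp4, another ring subunit, had 15.4, 17.8 and 15.3 CPM at P14, against 23.9, 26.4 and 21.6 CPM at P1. Its fall (edgeR adjusted p = 0.0378) ended without P1 replicate 1 or 3 or any 1 of the P14 libraries (0.0602 to 0.13) and after the GC and length correction (0.082), and 51.8% of its windows were unique because its transcripts overlap Trp53bp1. Tubgcp2, Tubgcp3 and Tubgcp5 did not pass, with log2 fold changes of −0.50, −0.30 and −0.22; Tubgcp2 passed as lower without P1 replicate 2 (edgeR adjusted p = 0.00795) and after the GC and length correction (0.0116; 0.00965 with the block added).

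The matrix scaffold genes moved apart. Pcnt, which encodes pericentrin, the large scaffold of the matrix (ENSMUSG00000001151; chromosome 10, 76351263 to 76442786), had 26.8, 31.6 and 37.6 CPM at P14, against 15.6, 17.1 and 17.3 CPM at P1. Each P14 library stood well above the P1 libraries, which lay close together, and Pcnt rose 1.92-fold (log2 fold change 0.94 ± 0.21, SE; edgeR adjusted p = 0.00257). With totals alone the log2 fold change was 0.47 and the adjusted p 0.143; relative to the median of all genes it was 0.94 under that scaling. After the GC and length correction the log2 fold change of Pcnt was 0.45 (adjusted p = 0.0315). Exons of Pcnt overlap 1700094J05Rik on the opposite strand, and 96% of its windows were unique. Cdk5rap2, a scaffold partner of pericentrin that activates gamma-tubulin complexes (ENSMUSG00000039298; chromosome 4, 70216856 to 70410443), had 9.99, 8.1 and 8.76 CPM at P14, against 16.6, 16.2 and 18 CPM at P1. Its replicates were tight at each age and did not overlap, and it fell 1.88-fold (edgeR adjusted p = 0.00443). Cep192, which recruits Plk1 and Aurora A to the matrix, had 3.24, 6.37 and 6.18 CPM at P14, against 5.74, 10.4 and 7.58 CPM at P1, and did not pass (edgeR adjusted p = 0.142).

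Pcm1, the founding protein of the centriolar satellites that carry proteins to the centrosome, did not pass. It had 16.1, 27.9 and 29.4 CPM at P14, against 26.5, 42.8 and 29.1 CPM at P1, with overlapping ages and P14 replicate 1 the lowest library (log2 fold change −0.43 ± 0.26, SE; edgeR adjusted p = 0.198). Cep72, a satellite protein that binds Pcm1, had 1.9, 1.99 and 1.8 CPM at P14, against 5.37, 4.78 and 3.37 CPM at P1, and fell 2.42-fold (edgeR adjusted p = 0.00533). Cep290, a protein of satellites and of the ciliary transition zone, was the least abundant member per length at P1, at 0.31 CPM per kilobase at P14 and 0.181 at P1. It did not pass, and rose without P14 replicate 1 (log2 fold change 1.14, edgeR adjusted p = 0.0318).

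**Figure D4:**
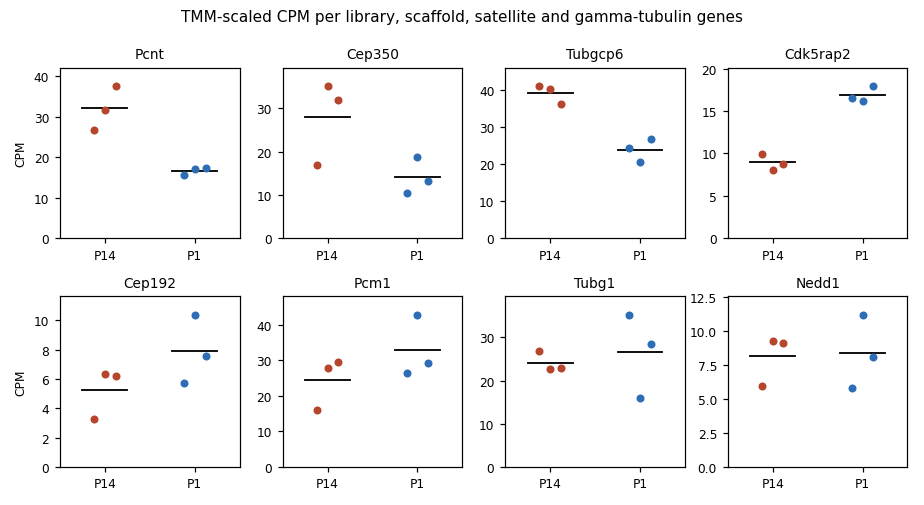
TMM-scaled CPM (linear axis from 0, a separate scale per panel) of 8 scaffold, satellite and gamma-tubulin genes in the 3 P14 libraries (red, left) and the 3 P1 libraries (blue, right); lines are means. Pcnt and Tubgcp6 are higher and Cdk5rap2 lower at P14 with no overlap, while the ages overlap for Cep350, Cep192, Pcm1, Tubg1 and Nedd1.

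Among the 11 genes of the appendages, the ciliary base and centriole cohesion 2 fell, 1 rose and 8 were not called, so that 18.2% fell and 9.09% rose, against 22.0% and 21.8% of all genes. Cep128, a protein of the subdistal appendages that anchor microtubules, had 9.85, 10.2 and 9.27 CPM at P14, against 26.6, 28.9 and 20.4 CPM at P1. The P14 values lay within 1 CPM of each other, and Cep128 fell 2.6-fold (log2 fold change −1.38 ± 0.22, SE; edgeR adjusted p = 0.000229). Odf2, which is needed for appendages to form, had 29.1, 32.8 and 31.2 CPM at P14, against 51.3, 42.1 and 56.4 CPM at P1. It fell 1.61-fold with no overlap (edgeR adjusted p = 0.0112), and without P1 replicate 3 the adjusted p was 0.062. Cep350, a large protein that anchors microtubules at the centrosome (chromosome 1, 155844964 to 155973255), had 16.8, 35.2 and 31.9 CPM at P14, against 10.4, 18.8 and 13.3 CPM at P1. P14 replicate 1 lay inside the P1 range. Cep350 rose 1.96-fold (edgeR adjusted p = 0.0176), and the call ended without P1 replicate 1 or 3 or P14 replicate 2 or 3 (0.0508 to 0.0936) and with totals alone (0.155). Not passing were the distal appendage protein Cep164, the ciliogenesis proteins Cep19 and Cep78, the linker proteins Cep68 and Cep250, centriolin (listed as Cep110, named Cntrl in GENCODE M21), Cep170 and Ninl, with log2 fold changes of −0.83 to 0.62. Cep164 passed as lower without P1 replicate 2 (edgeR adjusted p = 0.0387) and after the GC and length correction, where its log2 fold change was −1.03 against −0.51 without it (0.00113; 0.00068 with the block added). Cep78 passed as lower with the replicate block (0.0499) and without P1 replicate 3 (0.0246), but not with the block and the correction together (0.0662). Cep250 passed as higher without P14 replicate 1 (0.0236), while the correction took its log2 fold change to 0.01, against 0.62 without it (adjusted p = 0.97). Cep70, a protein that binds gamma-tubulin and was placed in no group, had 3.1, 2.92 and 0.901 CPM at P14, against 5.69, 7.99 and 4.38 CPM at P1, and fell 2.58-fold (edgeR adjusted p = 0.0116).

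The order of levels per length shifted between the ages. At P14 the members with the highest levels were Tubg1 at 13.4, Plk2 at 11.1, and Cep63 and Haus7 at 10.1 CPM per kilobase, and the lowest was Stil at 0.138. Aurka held 1.34 CPM per kilobase at P14 and 20.3 at P1, rank 28 of 51 at P14 and rank 2 at P1. Among the 50 pairs of neighbours in the order, the ranges over libraries overlapped in 48 pairs at P14 and 47 at P1, and those of Tubg1 (12.6 to 14.9) and Plk2 (9.77 to 12.1) at P14 did not overlap.

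The rule works on symbols, and the table lists 14 further Cep genes under older symbols; their Ensembl identifiers carry Cep names in GENCODE M21. Of these 14, 3 fell, 0 rose and 11 were not called (21.4% fell, against 22.0% of all genes), with a median log2 fold change of −0.28. Ccdc123 (Cep89, a distal appendage protein) had 18.4, 17.3 and 13.0 CPM at P14, against 31.8, 25.2 and 36.4 CPM at P1. BC088983 (Cep44, a centriole protein) had 5.98, 6.64 and 5.28 CPM at P14, against 8.6, 12.7 and 12.6 CPM at P1. Tsga14 (Cep41, a ciliary protein) had 2.96, 1.99 and 1.55 CPM at P14, against 4.21, 4.9 and 3.37 CPM at P1. These falls were 1 log2 unit or less, at −0.93, −0.91 and −0.92. Without P14 replicate 3 the number of falls among the 14 was 1, and over all genes it was 2437, against 3149 in the main fit. With totals alone 6 of the 14 fell, against 5592 of all 14301 genes tested. After the GC and length correction the median of the 14 was −0.16.

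In a second list of centrosome and spindle pole genes outside the rule (49 in the table, 3 of them also among the 14 older symbols), 16 fell, 5 rose and 28 were not called (over all genes 22.0% fell and 21.8% rose), with a median log2 fold change of −0.53 (−0.32 after the GC and length correction). Leaving out P14 replicate 2, or P1 replicate 3, reduced the rises to 2, and leaving out P14 replicate 3 to 3. Over all genes those fits gave 2387, 2665 and 2542 rises, against 3115 in the main fit. With totals alone 30 fell and 2 rose, while 5592 of all 14301 genes tested fell and 1620 rose. Its largest falls were again mitotic. Hmmr, a spindle protein that binds Tpx2, had 1.13, 0.266 and 1.42 CPM at P14, against 20.3, 27.8 and 23.7 CPM at P1. Nek2, the kinase that separates centrosomes, fell 19.5-fold, and Tacc3, which stabilises spindle microtubules, fell 10.8-fold. Its largest rises were those of Tacc2, Lrrc45 and Sdccag8. Tacc2, a microtubule-associated relative of Tacc3, had 394, 425 and 484 CPM at P14, against 102, 102 and 88.7 CPM at P1, with no overlap (log2 fold change 2.15 ± 0.20, SE; edgeR adjusted p = 1.63e-06). The centrosome linker Lrrc45 rose 2.39-fold and the ciliary gene Sdccag8 1.96-fold.

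Markers of cell division, and part of those of other cell types, moved over the same interval. For comparison, 22.0% of all genes tested fell and 21.8% rose. All 8 proliferation genes (Mki67, Top2a, Cdk1, Ccnb1, Ccna2, Bub1, Birc5 and Pcna) fell, with a summed level of 34.1 to 51.6 CPM at P14 and 423 to 468 CPM at P1. All 4 granulocyte markers in the table fell (summed 5.92 to 8.02 CPM at P14 and 43.7 to 56.6 CPM at P1), and 2 of 4 tested epicardial markers fell (12.1 to 19.1 CPM at P14 and 26.8 to 45.0 CPM at P1). Of 4 atrial markers 2 fell (191 to 344 CPM at P14 and 454 to 1020 CPM at P1). Macrophage markers rose in 6 of 7 (201 to 230 CPM at P14 and 49.7 to 67.4 CPM at P1) and erythroid markers in 5 of 6 (2410 to 3230 CPM at P14 and 422 to 883 CPM at P1). Endothelial markers rose in 3 of 8, fibroblast markers rose in 1 and fell in 1 of 8, and smooth muscle and pericyte markers rose in 5 and fell in 2 of 8. The part of these cell types in the changes of the centrosome genes was not tested.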

How the data were processed

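Poly(A)-selected RNA of P14 and P1 mouse ventricles was sequenced for 36 cycles on a Genome Analyzer IIx, per the labels' protocols. The authors deposited whole-number read counts per gene for 6 libraries, with no normalisation. The submitters' processing notes name GRCm38 (mm10), bedtools and edgeR 3.2.4 without their roles; for the aligner, counter, strand setting and annotation, the sources used here give nothing. Every gene in the deposited table has a total of at least 60 counts.

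Genes were filtered with filterByExpr (minimum count 10), leaving 14301 and removing 194, scaled by TMM and tested with the robust quasi-likelihood F-test of edgeR 4.0.16 (R 4.3.3) with age as the only term, two-sided, with Benjamini-Hochberg adjustment over all genes. The biological coefficient of variation was 23% over all genes. Standard errors are the coefficient over the square root of F. Folds are from fitted log2 fold changes. Ratios used CPM plus 0.5 and an exact permutation test that took the libraries as unpaired. The procedure was tested on simulated data. Alternatives used DESeq2 1.42.0 and limma 3.58.1 (voom), other scalings and filters, a spline correction for GC content and length, and leaving out each library.

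Positions, transcript lengths and unique 36-base windows came from GENCODE M21, which held 14316 of the 14495 identifiers. Promoters came from RefSeq (GRCm38.p6), the first window listed per gene. Without a known strand setting, reads of genes with overlapping exons cannot be told apart: 18 of the 51 genes overlap another on the opposite strand and 6 on the same strand. No duplicated library was found within an age (chi-square per degree of freedom at least 13 for each such pair). The check did not cover pairs across the ages. Replicate numbers are shared between ages with no stated meaning. Deviations of same-numbered libraries correlated at 0.295, 0.112 and 0.102, over the limit of 0.1 for each. P1 replicate 2 and P14 replicate 3, which differ in number, correlated at 0.09. Whether the numbers pair the libraries is thus unsettled. The main calls use age alone, and the fit with the replicate number as a block is an alternative.

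The genes, lists and tests were chosen with earlier results of these data known. Values are given for 16 genes fixed by name, for each member that rose, and for up to 3 of the largest falls per role group. Haus3, Haus5, Haus6, Cep63 and the genes named only for a changed call were added after their values were seen.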

Additional observations from a re-analysis of the deposited data

How the results depend on the processing

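DESeq2 size factors, no filter, DESeq2's test and voom each gave 21 falls and 3 rises, and these were the same 24 genes. With totals alone 35 members fell and 0 rose, and over all 14301 genes tested 5592 fell and 1620 rose. With the replicate block, 22 members fell and 5 rose, while over all genes tested 3435 fell and 3561 rose (3149 and 3115 in the main fit). The block ended no call of a member and added those of Cep78, Cep97 and Plk3. Requiring a fold above 1.5 left 13 falls, 0 rises and 3403 called genes in the table. An adjusted p under 0.01 left 16 falls, 2 rises and 4135 called genes in the table. That threshold ended the calls of Cep152, Cep350, Cep70, Haus1, Odf2 and Tubgcp4. Leaving out 1 library gave 18 to 22 falls and 2 to 5 rises (5 without P14 replicate 1), and 4656 to 6710 called genes in the table. The GC and length correction gave 23 falls and 3 rises among the members. Over all genes tested 3773 fell and 3598 rose under it, against 3149 and 3115 in the main fit. Among the members the correction ended the calls of Haus1, Tubgcp4 and Tubgcp6 and added those of Cep164, Cep97, Haus5, Tubg1 and Tubgcp2. With the replicate block added, the member counts were 24 and 4 (3919 and 3796 over all genes), and of the 24 calls that of Tubgcp4 ended. A filter of over 5 CPM in at least 3 libraries kept 37 of the 51 members, of which 17 fell and 3 rose. Of all 10834 genes it kept, 2525 fell and 2468 rose. Plk1, Stil, Plk4, Aspm and Aurka exceeded 5 CPM in P1 libraries only (Aurka at most 3.66 CPM at P14). They passed this filter by being high at P1, so it cannot check their falls.

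Signs turned only for members that were not called. With totals alone, which put the median of all genes at −0.47, Cep120 was at −0.39, Cep135 −0.23, Cep170 −0.40, Cep63 −0.30, Ninl −0.48 and Tubg2 −0.25 (log2). With voom, Cep170 was at −0.02 and Ninl −0.01. With the GC and length correction, Nedd1 was at 0.27, Ninl −0.17, Tubg2 −0.23 and Tubgcp5 0.08, and with the replicate block added 0.27, −0.13, −0.25 and 0.0 (adjusted p = 0.998). Over the libraries left out, ranges were Cep110 −0.44 to 0.04, Cep120 −0.07 to 0.24, Cep170 −0.09 to 0.39, Nedd1 −0.28 to 0.25, Ninl −0.14 to 0.19, Tubg1 −0.41 to 0.14, Tubg2 −0.10 to 0.52 and Tubgcp5 −0.60 to 0.17. The log2 ratio of Tubg1 to Tubg2 differed by −0.35 to 0.08 and that of Plk1 to Plk2 by −3.02 to −2.29; with 2 in place of 0.5 added to each CPM they differed by −0.11 and −1.77. The cause of these shifts was not tested. Members under 2 CPM rest on few counts.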
